A study of Mus musculus with 6 samples.

Results

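The genes of the myosin light chains of muscle and of the kinases that phosphorylate them were followed in mouse gastrocnemius, a calf muscle made mostly of fast fibres. They were chosen by symbol from a list of 10, namely Myl1, Mylpf, Myl2, Myl3, Myl4, Myl6, Myl6b, Mylk, Mylk2 and Mylk4. All 10 were found among the 25344 genes of the table. The muscle came from mice with the genotype WT (3 libraries) and from littermates with the genotype HSA-NRTN (3 libraries), which carry an NRTN transgene under the human alpha-skeletal actin promoter. That promoter is active in skeletal muscle fibres, so neurturin, a secreted neurotrophic factor of the GDNF family, is made by the muscle itself in HSA-NRTN. The labels give no age, sex or strain, and do not say how many mice stand behind a library or whether the transgene comes from 1 founder line. The p-values below therefore measure the spread between these libraries.

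Each myosin head carries an essential light chain and a regulatory light chain on its lever arm. Fast fibres use the essential chain of Myl1 and the regulatory chain of Mylpf, while slow fibres and the heart ventricle use Myl3 and Myl2. Regulatory chains are phosphorylated by calmodulin-dependent light chain kinases, mainly the product of Mylk2 in skeletal muscle, which strengthens twitches after repeated activity. Smooth muscle and non-muscle cells use other light chains, such as that of Myl6, and the kinase encoded by Mylk.

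Depth and labels were checked first. Reads counted in genes, recovered from the table, totalled 27418154 to 35243260 in the WT libraries and 28580513 to 50291845 in the HSA-NRTN libraries. Nrtn stood at 1.70 to 4.33 FPKM across WT and at 169 to 201 FPKM in HSA-NRTN, as the labels say. FPKM are reads scaled by the length of the gene and by the reads counted in the library. The fibre markers Acta1, Ckm, Des, Mb and Ttn together reached 23998 to 28955 FPKM across WT and 18769 to 21914 FPKM in HSA-NRTN, so the labelled tissue was plain in every library. The direction of small changes depended on the scaling. The authors' size factors, which correct for composition and were recovered from the table, lower HSA-NRTN relative to WT by 1.23-fold against FPKM. Over all tested genes the log2 change had a median of 0.18 with FPKM and -0.05 with the size factors, and both scalings are given wherever they part.

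The 2 fast light chain genes, the 2 muscle kinase genes and Myl6b fell in HSA-NRTN, and this held under both scalings. Of the 10 genes, 9 had a mean of at least 1 FPKM and were tested, and Myl4 was not. With FPKM, 5 of the 9 fell and 3 rose (limma, adjusted p under 0.05 over 10755 genes), against a background of 11.7% of all tested genes called lower and 41.6% called higher. With the size factors 5 fell and 0 rose, against 29.9% and 21.1%. Taking both directions, 53.3% of all tested genes were called with FPKM and 51.0% with the size factors. With the size factors, 0 of the 9 were higher at an unadjusted p under 0.05 as well (limma). In the authors' deposited test 6 of the 10 were lower and 0 higher, also at an unadjusted p under 0.05, against 17.8%, 18.0% and, in either direction, 35.8% of all genes there. The sixth was Myl4. The groups did not overlap for the same 5 falling and 3 rising genes with FPKM, where 15.2% of tested genes lay lower and 47.0% higher without overlap. With the size factors these shares were 35.4% and 24.6%, and the 3 rising genes overlapped.

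**Figure D1:**
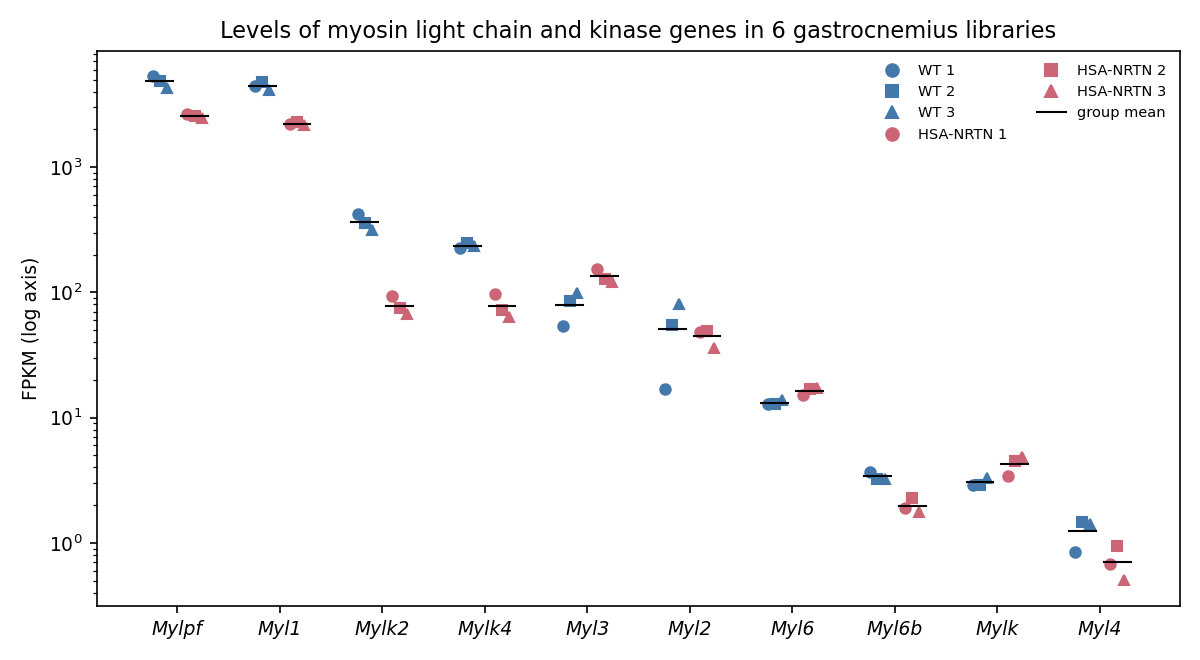
Level of each of the 10 genes in FPKM on a log axis, with 1 point per library (WT in blue, HSA-NRTN in red) and a line at each group mean, ordered by the WT mean. Mylk2, Mylk4, Mylpf, Myl1 and Myl6b were lower in all 3 HSA-NRTN libraries than in any WT library, and Myl2 spread from 17.0 to 80.3 FPKM within WT.

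The fast light chain genes are among the most abundant of the muscle. Mylpf, the fast regulatory chain (ENSMUSG00000030672; GRCm38 chromosome 7, 127208890 to 127214298, forward strand), stood at 5339, 4882 and 4285 FPKM in WT 1, 2 and 3. In HSA-NRTN 1, 2 and 3 it stood at 2649, 2582 and 2454 FPKM. Every HSA-NRTN library lay below every WT library, and the HSA-NRTN libraries lay closer together. The mean fell from 4835 ± 529 to 2562 ± 99.2 FPKM (SD, n = 3 each). On the log2 scale the change was -0.91 ± 0.10 (SE; limma, adjusted p = 0.000227). Scaled by the size factors, the log2 change was -1.21 ± 0.13 (limma, adjusted p = 0.000191). As RNA of whole muscle was measured, fewer fast fibres and less of this RNA per fibre cannot be told apart.

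Myl1, the fast essential chain, moved like its partner. Myl1 (ENSMUSG00000061816; chromosome 1, 66924295 to 66945404, reverse strand) stood at 4449, 4737 and 4156 FPKM in the WT libraries. It stood at 2214, 2292 and 2154 FPKM in the HSA-NRTN libraries, again without overlap. The log2 change was -1.0 ± 0.09 (SE; limma, adjusted p = 6.01e-05), and -1.30 ± 0.11 with the size factors (adjusted p = 6.79e-05). Myl1 makes a long and a short essential chain from alternative starts, and the table gives a single value for all 8 annotated transcripts, so these products were not separated here.

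The ratio of the 2 fast light chains to each other did not separate the groups. Myl1 per Mylpf was 0.833, 0.970 and 0.970 across WT and 0.836, 0.888 and 0.878 in HSA-NRTN. The ranges overlapped, and the log2 ratio differed by -0.09 (exact two-sided permutation test, p = 0.4). Together the pair took 1.32% to 1.5% of all reads across WT and 0.707% to 0.749% in HSA-NRTN. By rank of FPKM, Mylpf went from place 14 in each WT library to places 16 to 20, and Myl1 from places 15 to 16 to places 21 to 22.

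Relative to Myh4, the heavy chain of type IIb fibres, Mylpf was higher in every HSA-NRTN library. Mylpf per Myh4 was 0.685, 0.517 and 0.473 across WT and 1.09, 1.05 and 0.812 in HSA-NRTN, without overlap. The log2 ratio was higher by 0.82 in HSA-NRTN (exact two-sided permutation test, p = 0.1, the smallest that 3 against 3 libraries can give). In all, 11 such ratios within a library were compared, and the Benjamini-Hochberg adjusted p of each one without overlap was 0.1375. These ratios do not depend on the scaling of the libraries. Over the 9 fast fibre markers 8 were called lower under either scaling, while Myh1, encoding the IIx heavy chain, was called higher. Myh4 itself fell by more than Mylpf, with a log2 change of -1.74 (limma, adjusted p = 2.02e-05). Tnnt3, Tnni2, Tnnc2, Atp2a1, Mybpc2 and Myh1 likewise stood higher per Myh4 in every HSA-NRTN library than in any WT library. Actn3 per Myh4 stood lower, and Pvalb per Myh4 overlapped. These marker ratios were not tested.

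The largest falls among the 10 genes were those of the muscle kinases. Mylk2, the calmodulin-dependent light chain kinase of skeletal muscle (ENSMUSG00000027470; chromosome 2, 152911352 to 152923068, forward strand), stood at 424, 355 and 314 FPKM in WT. It stood at 93.8, 74.7 and 66.9 FPKM in HSA-NRTN. The lowest WT library thus stood far above the highest HSA-NRTN library. The group means were 364 ± 55.7 and 78.5 ± 13.9 FPKM (SD, n = 3 each), a 4.65-fold difference. The log2 change of -2.20 ± 0.15 (SE; limma, adjusted p = 1.42e-05) was place 17 from the bottom among the 10755 tested genes. Scaled by the size factors, it was -2.50 ± 0.17 (limma, adjusted p = 2.05e-05).

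Mylk4, a further member of the light chain kinase family that is expressed in muscle (ENSMUSG00000044951; chromosome 13, 32700834 to 32783954, reverse strand), fell as well. It stood at 225, 248 and 233 FPKM across WT and at 96.2, 71.9 and 63.4 FPKM in HSA-NRTN. The WT libraries were close together, and the groups did not overlap. The log2 change was -1.62 ± 0.14 (SE; limma, adjusted p = 5.68e-05), place 34 from the bottom, and -1.91 ± 0.17 with the size factors (adjusted p = 7.02e-05). By rank of FPKM, Mylk2 stood at places 58 to 79 across WT and 324 to 461 in HSA-NRTN. Mylk4 went from places 102 to 110 to places 317 to 485.

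Both kinases were lower in HSA-NRTN also relative to the light chain. Mylk2 per Mylpf was 0.0795, 0.0727 and 0.0733 across WT and 0.0354, 0.0289 and 0.0272 in HSA-NRTN, so the groups lay apart. The log2 ratio differed by -1.31, a 2.48-fold lower ratio in HSA-NRTN (exact two-sided permutation test, p = 0.1, the smallest possible). Mylk4 per Mylpf was 0.0422, 0.0509 and 0.0544 across WT and 0.0363, 0.0279 and 0.0258 in HSA-NRTN. The log2 ratio differed by -0.72 (p = 0.1, same exact test). The groups came close here, with WT 1 just above HSA-NRTN 1. Mylk2 per Mylk4 was 1.88, 1.43 and 1.35 across WT and 0.975, 1.04 and 1.05 in HSA-NRTN (p = 0.1, same exact test). Which kinase was the more abundant depended on the length used. Per base of the principal transcript, Mylk2 stood above Mylk4 in WT 1 and WT 2 and below it in WT 3 (314 and 322 FPKM). On that scale Mylk4 was above Mylk2 in every HSA-NRTN library (133, 99.2 and 87.5 against 93.8, 74.7 and 66.9 FPKM).

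**Figure D2:**
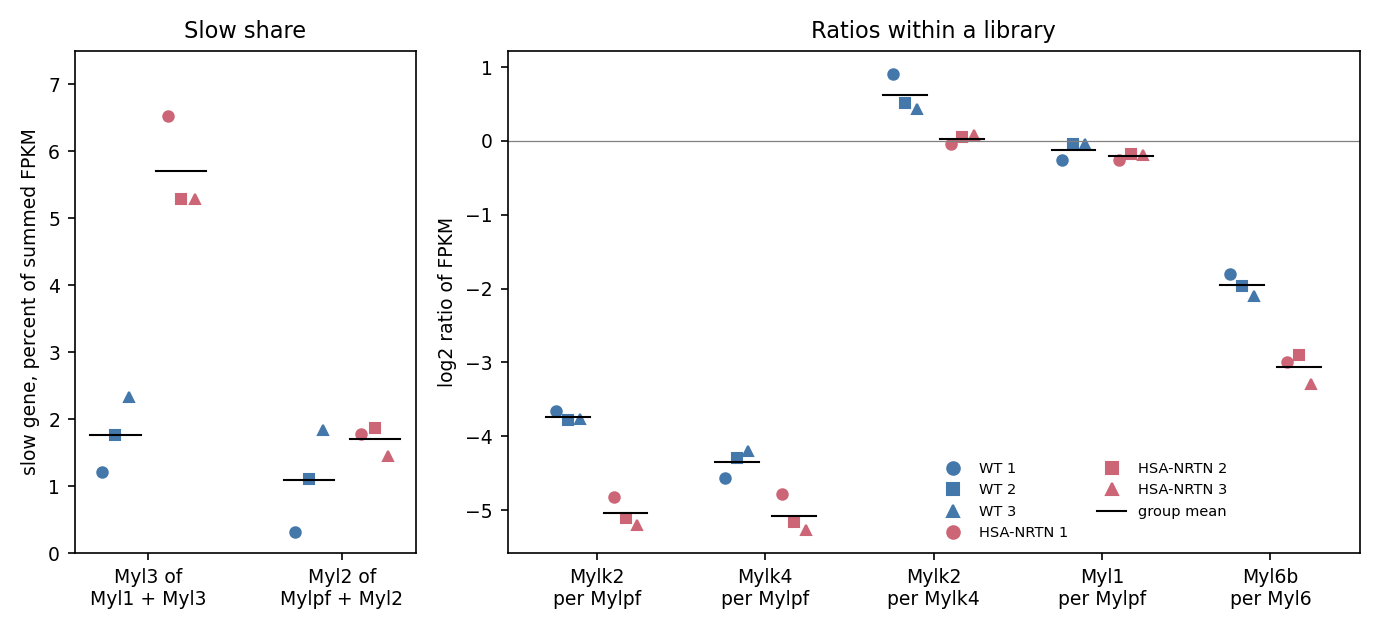
Left, share of the slow gene in the summed FPKM of a slow and fast pair, in percent; right, log2 ratios of FPKM between genes, with 1 point per library and a line at each group mean. The share of Myl3 was 1.2% to 2.33% across WT and 5.28% to 6.52% in HSA-NRTN, that of Myl2 overlapped, and both kinases lay lower per Mylpf in HSA-NRTN.

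Promoter windows are shown for 3 genes that fell and for Myl3, which did not fall, to set their elements side by side. Each window holds the 250 bases before the RefSeq start of transcription (GRCm38.p6), 5′ to 3′. The windows are chr7:127211358-127211607, forward strand, chr1:66945057-66945306, reverse strand, chr13:32783965-32784214, reverse strand and chr9:110763428-110763677, forward strand for Mylpf, Myl1, Mylk4 and Myl3. Capitals mark E-boxes (CANNTG, the site of myogenic factors), MEF2 sites and CArG boxes (the site of serum response factor) by their usual consensus, the MCAT element CATTCC and TATAAA, searched on both strands.
Mylpf: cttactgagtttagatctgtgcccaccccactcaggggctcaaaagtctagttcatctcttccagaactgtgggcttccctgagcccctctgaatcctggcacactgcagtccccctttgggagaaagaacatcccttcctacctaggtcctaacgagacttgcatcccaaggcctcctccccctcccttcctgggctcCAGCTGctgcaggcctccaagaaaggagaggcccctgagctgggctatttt
Myl1: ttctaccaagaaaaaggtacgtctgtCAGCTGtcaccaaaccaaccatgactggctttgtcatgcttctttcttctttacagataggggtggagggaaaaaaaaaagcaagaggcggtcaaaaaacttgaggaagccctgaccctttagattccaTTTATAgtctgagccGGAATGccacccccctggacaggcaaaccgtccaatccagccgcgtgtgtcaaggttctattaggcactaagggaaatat
Mylk4: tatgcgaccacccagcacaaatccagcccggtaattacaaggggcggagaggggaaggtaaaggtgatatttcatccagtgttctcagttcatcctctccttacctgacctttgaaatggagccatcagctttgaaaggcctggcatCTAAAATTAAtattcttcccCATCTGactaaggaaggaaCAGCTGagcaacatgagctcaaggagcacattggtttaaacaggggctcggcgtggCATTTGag
Myl3: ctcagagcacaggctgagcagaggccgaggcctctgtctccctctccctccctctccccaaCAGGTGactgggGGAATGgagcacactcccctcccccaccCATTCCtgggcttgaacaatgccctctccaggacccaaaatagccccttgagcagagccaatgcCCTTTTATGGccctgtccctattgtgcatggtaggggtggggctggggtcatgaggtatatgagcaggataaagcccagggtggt

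Of the 10 genes, 9 had a window in the table and Mylk2 had none. The E-box form CAGCTG, which overlaps CANNTG by design, occurred once in each of the windows of Mylpf, Myl1 and Mylk4. It lay 46 to 51 bases before the start in Mylpf, 219 to 224 bases before it in Myl1 and 59 to 64 bases before it in Mylk4. CAGCTG was not shared by every gene that fell, since the window of Myl6b held CAACTG instead. Of the 2 windows of Myl2, which was not called, 1 held CAGCTG 125 to 130 bases before its RefSeq start. Both Myl2 windows, at chr5:122092474-122092723 and chr5:122092939-122093188, lie before the Myl2 gene as counted here, which begins at position 122100951. They therefore do not adjoin the start of the gene that was measured. Of the printed windows, those of Mylpf, Myl1 and Myl3 lie within the span of the counted gene, after its outermost start. These starts are at 127208890 for Mylpf, 66945404 (reverse strand) for Myl1 and 110741861 for Myl3. The Mylk4 window lies just outside its gene, which starts at 32783954 on the reverse strand. Over all 32851 windows of this length, 13.0% held CAGCTG and 66.2% held CANNTG. The Myl3 window held CAGGTG as its E-box, CATTCC on either strand (12.6% of all windows) and a CArG box 76 to 85 bases before the start (1.47% of all windows). CATTCC also occurred in the windows of Myl1 (reverse strand, 75 to 80 bases before the start) and Mylk (153 to 158 bases before it). A window of Myl6 held a CArG box as well, 41 to 50 bases before its start. The Mylk4 window held a MEF2 site 94 to 103 bases before the start (2.92% of all windows), and the Myl1 window held TATAAA on the reverse strand (12.4%). Such matches describe the letters of these windows, and nothing in the table measures binding to them.

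The slow light chain genes differed from the fast ones and from each other. Myl3, the slow essential chain (ENSMUSG00000059741; chromosome 9, 110741861 to 110769798, forward strand), stood at 54.2, 84.9 and 99.1 FPKM in WT. In HSA-NRTN it stood at 155, 128 and 120 FPKM, above every WT library. With FPKM it rose by 0.79 ± 0.20 on the log2 scale (SE; limma, adjusted p = 0.0123). With the size factors the groups overlapped and the log2 change of 0.49 ± 0.22 missed the threshold (limma, adjusted p = 0.0911). Its exons overlap those of Pth1r of the opposite strand for 4.65% of the exon length, and the labels do not say whether the libraries kept the strand.

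Myl2, the slow regulatory chain (ENSMUSG00000013936; chromosome 5, 122100951 to 122113472, forward strand), stood at 17.0, 55.0 and 80.3 FPKM across WT and at 48.1, 49.0 and 36.3 FPKM in HSA-NRTN. The WT libraries spanned a wider range than the HSA-NRTN libraries, which lay within it. The log2 change was 0.05 ± 0.47 with FPKM and -0.24 ± 0.48 with the size factors (SE; limma, adjusted p = 0.935 and 0.698). The sign was not stable. Without WT 1, Myl2 was called lower, with a log2 change of -0.58 (limma, adjusted p = 0.0353). Without HSA-NRTN 1 or HSA-NRTN 2 the change was -0.0089 and -0.022, and without WT 3 it was 0.51, none of them called (limma, adjusted p = 0.991, 0.977 and 0.343).

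Set against its fast partner, the slow essential chain had a higher share in every HSA-NRTN library, and the slow regulatory chain did not separate the groups. Myl3 made up 1.2%, 1.76% and 2.33% of the summed FPKM of Myl1 and Myl3 across WT and 6.52%, 5.28% and 5.29% in HSA-NRTN. The mean share was 1.76% ± 0.562 against 5.70% ± 0.715 (SD, n = 3 each), higher by 3.93 percentage points (exact two-sided permutation test, p = 0.1, the smallest possible). Myl2 made up 0.317%, 1.11% and 1.84% of the summed FPKM of Mylpf and Myl2 across WT and 1.78%, 1.86% and 1.46% in HSA-NRTN. These ranges overlapped (difference of 0.610 percentage points, p = 0.3, same exact test). In every library the fast gene made up the greater part of its pair. Myl3 per Myl2 was 3.19, 1.55 and 1.23 across WT and 3.22, 2.61 and 3.32 in HSA-NRTN, with WT 1 inside the HSA-NRTN range (p = 0.2, same exact test).

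Both slow light chains, like most other slow fibre markers, were higher in HSA-NRTN per transcript of the slow heavy chain. Myl3 per Myh7, the heavy chain of type I fibres, was 4.0, 4.26 and 2.61 across WT and 11.3, 11.0 and 25.0 in HSA-NRTN. Myl2 per Myh7 was 1.25, 2.75 and 2.11 across WT and 3.51, 4.22 and 7.54 in HSA-NRTN. Neither ratio overlapped between the groups (log2 differences of 2.04 and 1.31, exact two-sided permutation test, p = 0.1 each, the smallest possible). Myh7 itself stood at 13.6, 20.0 and 38.0 FPKM across WT and at 13.7, 11.6 and 4.81 FPKM in HSA-NRTN. The log2 change of Myh7 was -1.15 with FPKM (limma, adjusted p = 0.0446). In HSA-NRTN 3, with the highest of these ratios, Myh7 was the lowest of the 6 libraries. Most other slow fibre markers also stood higher per Myh7 in every HSA-NRTN library than in any WT library. They were Tnnt1, Tnni1, Tpm3, Myoz2, Atp2a2, Csrp3, Casq2 and Pln, while Tnnc1 per Myh7 overlapped. These marker ratios were not tested. The rise per Myh7 was thus not particular to the light chains.

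Other slow fibre markers overlapped between the groups in their summed level. The summed level of 10 such markers was 127, 204 and 336 FPKM across WT and 256, 290.5 and 194 FPKM in HSA-NRTN. As for Myl2, WT 1 was the lowest and WT 3 the highest library, whereas Myl3 was highest in HSA-NRTN 1. Of the 10 markers 2 were called higher (Casq2 and Pln) and 1 lower (Myh7) with FPKM, and 1 higher and 3 lower with the size factors. Their median log2 change was 0.20 and -0.02 under the 2 scalings, near the 0.18 and -0.05 of all tested genes. The part of the slow fibre content of a library in the levels of Myl2 and Myl3 was not tested.

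**Figure D3:**
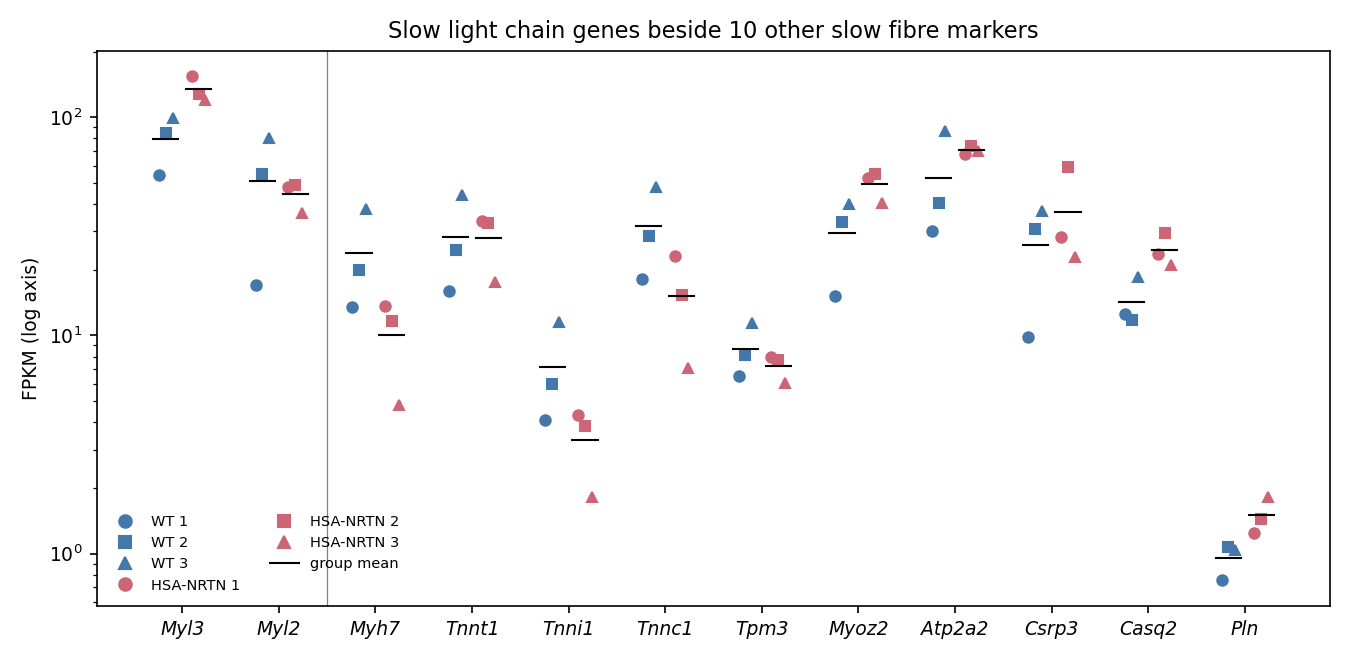
Level in FPKM on a log axis of Myl3 and Myl2 (left of the grey line) and of 10 other slow fibre markers, with 1 point per library and a line at each group mean. WT 1 was the lowest WT library for Myl3 (54.2 FPKM) and Myl2 (17.0 FPKM), and Myh7 was lowest in HSA-NRTN 3 at 4.81 FPKM.

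Myl4, the essential chain of embryonic muscle and of the atrium, was the lowest of the 10 genes per length of merged exons. Per principal transcript this did not hold for the WT mean. Myl4 (ENSMUSG00000061086; chromosome 11, 104550663 to 104595753, forward strand) stood at 0.849, 1.47 and 1.40 FPKM across WT and 0.679, 0.939 and 0.501 FPKM in HSA-NRTN, from 71 to 229 reads per library. With FPKM, HSA-NRTN 2 lay above WT 1, and the other libraries were separated by group. With the size factors the groups did not overlap, with WT 1 at 0.939 and HSA-NRTN 2 at 0.821 FPKM. Its mean of 0.973 FPKM left it just under the level set for testing. Tested without that filter, the log2 change was -0.39 ± 0.15 and missed the threshold (limma, adjusted p = 0.111). The authors' deposited table calls it lower, with a log2 change of -1.11 ± 0.26 (adjusted p = 0.00015). Myh8, the perinatal heavy chain, was called lower too (109 to 62.2 FPKM in the group means), whereas embryonic Myh3 was not called (2.37 and 2.46 FPKM). Myl4 is also a gene of red blood cell precursors. The 5 red blood cell markers summed to 101 to 164 FPKM across WT and 195 to 204 FPKM in HSA-NRTN. All 5 were called higher with FPKM. With the size factors 0 were called, and the sums overlapped between the groups. In this list 0 genes were at 0 in every library. The part of such cells in the level of Myl4 was not tested.

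The light chains of non-muscle cells moved in opposite directions with FPKM. Myl6, the essential chain of smooth muscle and non-muscle myosin (ENSMUSG00000090841; chromosome 10, 128490860 to 128494145, reverse strand), stood at 12.7, 12.8 and 13.9 FPKM across WT and at 15.2, 17.0 and 17.2 FPKM in HSA-NRTN. The groups did not overlap with FPKM and overlapped with the size factors. The log2 change was 0.30 ± 0.07 with FPKM (SE; limma, adjusted p = 0.00976), and under the size factors 0.02 ± 0.06, which was not called (adjusted p = 0.79).

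Myl6b, an essential chain of non-muscle cells and of some slow muscle (ENSMUSG00000039824; chromosome 10, 128494157 to 128498685, reverse strand), lies next to Myl6 on the same strand. It stood at 3.67, 3.26 and 3.26 FPKM across WT and at 1.91, 2.28 and 1.75 FPKM in HSA-NRTN, from 99 to 212 reads per library. All 3 HSA-NRTN libraries were below all WT libraries. The log2 change was -0.56 ± 0.09 (SE; limma, adjusted p = 0.00126), and -0.78 ± 0.08 with the size factors (adjusted p = 0.0002). Myl6b per Myl6 was 0.288, 0.256 and 0.234 across WT and 0.126, 0.135 and 0.102 in HSA-NRTN, without overlap and whatever the scaling (log2 difference of -1.11, exact two-sided permutation test, p = 0.1, the smallest possible).

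Mylk, the kinase of smooth muscle and non-muscle cells (ENSMUSG00000022836; chromosome 16, 34745210 to 35002420, forward strand), did not follow the muscle kinases. It stood at 2.91, 2.88 and 3.32 FPKM across WT and at 3.41, 4.51 and 4.82 FPKM in HSA-NRTN, with HSA-NRTN 1 just above WT 3. With FPKM it was called higher by 0.37 ± 0.11 on the log2 scale (SE; limma, adjusted p = 0.0237). Under the size factors it was not called (log2 change 0.14, limma, adjusted p = 0.255), nor was it without WT 1, WT 2, HSA-NRTN 2 or HSA-NRTN 3 (adjusted p = 0.0609, 0.072, 0.0812 and 0.0859). Exons of the antisense gene E130310I04Rik cover 4.87% of its exon length.

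**Figure D4:**
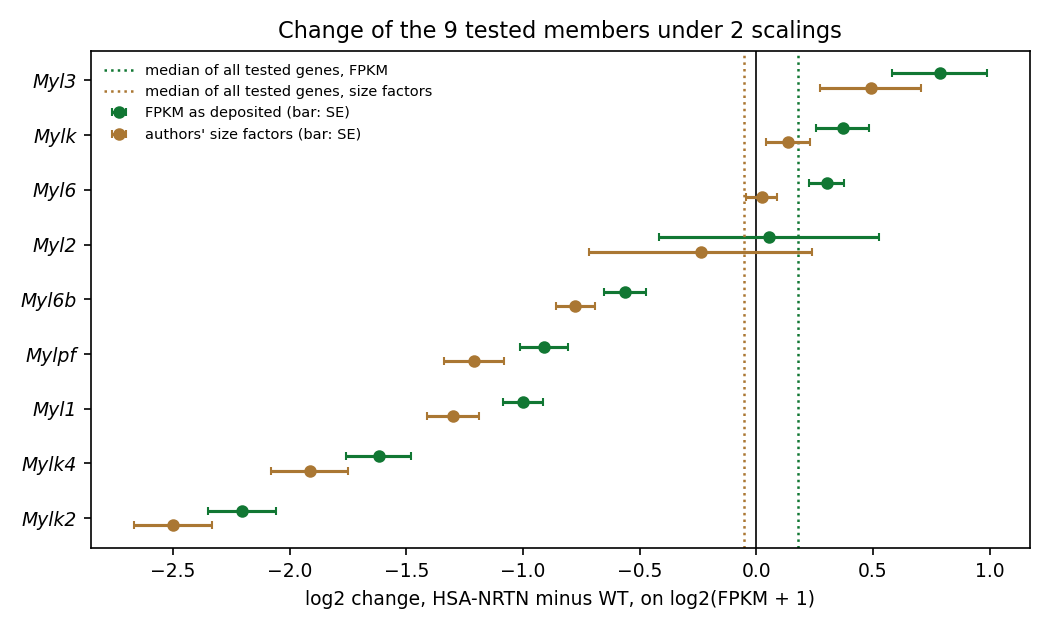
Log2 change of the 9 tested genes on the log2(FPKM + 1) scale with FPKM as deposited (green) and with the authors' size factors (brown). Bars are standard errors, and dotted lines mark the median of all tested genes, 0.18 and -0.05. Mylk2, Mylk4, Myl1, Mylpf and Myl6b lay below 0 under both scalings, while Myl6 moved from 0.30 to 0.02.

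With FPKM, most markers of other cells were called higher in HSA-NRTN, as Myl6 and Mylk were. With the size factors Myl6 and Mylk were not called, while some of these markers still were. Smooth muscle and pericyte markers summed to 155 to 177 FPKM across WT and 203 to 248 FPKM in HSA-NRTN. With the size factors these sums overlapped between the groups. Of the 9 tested, 7 were called higher and 1 lower with FPKM, and 2 higher and 1 lower with the size factors. All 6 macrophage and leukocyte markers were called higher under both scalings, and their sum went from 55.6 to 79.6 FPKM in WT to 688 to 775 FPKM in HSA-NRTN. All 6 fibroblast markers were called higher with FPKM and 5 with the size factors (sums of 254 to 289 and 437 to 536 FPKM). The 5 endothelial markers summed to 67.7 to 74.7 FPKM across WT and 92.3 to 114 FPKM in HSA-NRTN, with 5 called higher, and 2 under the size factors. In each of these lists 0 genes were at 0 in every library. Their part in the levels of Myl6 and Mylk was not tested.

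Other light chain genes of the family were low or moved little, with Myl12b apart. Of 6 further light chain and kinase genes 4 were tested. Myl12b, a regulatory chain of non-muscle myosin, stood at 5.35, 5.47 and 5.80 FPKM across WT and at 11.6, 11.5 and 12.5 FPKM in HSA-NRTN, without overlap. It rose by 0.98 on the log2 scale (limma, adjusted p = 1.97e-05), or by 0.71 under the size factors (adjusted p = 0.000108). Its near copy Myl12a was not called (32.6 and 38.9 FPKM, limma, adjusted p = 0.0717), and how reads were divided between these copies is uncertain. Myl9, the regulatory chain of smooth muscle, was called higher with FPKM (20.6 to 27.6 FPKM, adjusted p = 0.0144) but not with the size factors (adjusted p = 0.324). Myl10 was not called, and Myl7, the atrial regulatory chain, and Mylk3, the cardiac kinase, were at most 0.222 and 0.328 FPKM in any library. Mylk3, too low to be tested here, stood at 0.0222 to 0.0795 FPKM across WT and 0.188 to 0.328 FPKM in HSA-NRTN. The authors' deposited test called it higher (log2 change 1.76, adjusted p = 0.00743), from as few as 3 reads in a library. Among 3 non-muscle heavy chain genes Myh9 was called higher under both scalings (7.42 to 17.0 FPKM). Myh10 was called higher with FPKM (limma, adjusted p = 0.0436) but not with the size factors (0.244). Myh14 was called under neither (limma, adjusted p = 0.0681 and 0.656).

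Calm2 and Calm3, which encode calmodulin, the calcium sensor that switches on the kinases, fell under both scalings. Calm3 stood at 159, 121 and 113 FPKM in the WT libraries and at 58.8, 56.5 and 56.3 FPKM in the HSA-NRTN libraries. Its HSA-NRTN libraries lay far below the WT libraries and close to each other, and the log2 change was -1.17 (limma, adjusted p = 0.000144). Calm2 fell less, from 106 to 83.9 FPKM in the group means (log2 change -0.34, limma, adjusted p = 0.011).

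Of the light chain phosphatase, the genes of the myosin-targeting subunits were called higher with FPKM, as were 41.6% of all tested genes. They were Ppp1r12a (5.27 to 8.0 FPKM), Ppp1r12b (29.1 to 40.8 FPKM) and Ppp1r12c (4.54 to 8.24 FPKM). Under the size factors Ppp1r12c stayed called (log2 change 0.48, limma, adjusted p = 0.00169), and Ppp1r12a and Ppp1r12b did not (adjusted p = 0.0889 and 0.173). The phosphatase inhibitor genes Ppp1r14b and Ppp1r14c fell under both scalings, Ppp1r14c from 50.6 to 36.0 FPKM and Ppp1r14b from 32.9 to 26.6 FPKM. A further inhibitor gene, Ppp1r14a, was too low to be tested (0.881 and 1.08 FPKM in the group means). Ppp1cb, the catalytic subunit, and Dapk3, a kinase that also phosphorylates light chains, were called lower with the size factors and not called with FPKM.

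Between genes, levels were compared per length. In WT the order was Mylpf, Myl1, Mylk2, Mylk4, Myl3, Myl2, Myl6, Myl6b, Mylk and Myl4. Neighbours overlapped over the libraries for Mylpf and Myl1, for Myl3 and Myl2, and for Myl6b and Mylk. In HSA-NRTN Myl3 stood above both kinases, Mylk2 overlapped Mylk4, and Mylk stood above Myl6b. FPKM divides by the union of all annotated exons, which for Myl6 (3187 bases, against 665 in its principal transcript) and Myl4 (4637 against 943 bases) is far longer than the main mRNA. Per base of the principal transcript Myl1 exceeded Mylpf in WT (11486 and 6704 FPKM), Myl6 reached 63.0 FPKM, and Mylk rather than Myl4 had the lowest WT mean (4.37 and 6.10 FPKM). Comparisons of a gene with itself do not change with its length.

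Genes with the most similar profile were sought for 3 of the 10. Likeness was the root mean square difference of log2(FPKM + 1) over the 6 libraries, each gene centred on its own mean. Candidates were tested genes with a symbol, leaving out the 10 genes, pseudogenes and genes named Gm plus digits or ending in Rik. Nearest to Mylk2 were Pvalb, a calcium buffer of fast fibres (difference 0.167, 7385 to 5661 FPKM across WT and 1535 to 1074 FPKM in HSA-NRTN), Gdap1 (0.167) and Mafa (0.172). Nearest to Myl3 was Prkg1, the cyclic GMP-dependent kinase (0.103), followed by Snord37 (0.121) and Alox12 (0.127). Nearest to Myl2 were Mir186 (0.207), Hoxa13 (0.268) and Hoxd9 (0.279). Mir186, a microRNA gene, stood at 0 to 2.40 FPKM over the 6 libraries. Snord37, a small nucleolar RNA gene, stood at 0.570 to 3.83 FPKM. In such short genes a few reads make up these values, so their likeness is open to counting error. Hoxa13 and Hoxd9, homeobox genes that pattern the limb, shared the low WT 1 library of Myl2, with Hoxa13 at 0.236, 2.77 and 2.34 FPKM and Hoxd9 at 1.76, 8.55 and 7.27 FPKM in WT. In HSA-NRTN they were at 1.44 to 1.67 and at 5.68 to 5.88 FPKM. Over 6 libraries in 2 groups such likeness mostly follows the group difference and single libraries.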

How the data were processed

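Per the labels' protocols, gastrocnemius was snap-frozen, its RNA isolated by TRI reagent, and libraries made by the Illumina TruSeq RNA method. HISAT2, HTSeq, DESeq2, Cufflinks and Cuffdiff are named with GRCm38 in the submitters' processing notes, without versions, order or settings. The values per library are FPKM, which the authors scaled by gene length and by library depth. The columns name no unit. It was found from the values, since each of 127467 non-zero values is a whole number of reads to within 0.01 read, and for 95.6% of genes matched to GENCODE M21 (GRCm38) the implied length equals that of the merged exons. Per the file headers, the deposited table further gives a mean signal, a log2 fold change, a test score and p-values from the authors' own comparison. A read in a gene of 1 kilobase equals 0.0199 to 0.0365 FPKM, and 3 reads, under which a gene can be missed, 0.0597 to 0.109 FPKM, for counting error only.

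Groups were taken from the labels. Genes were tested in R 4.3.3 by limma 3.58.1 (trend option) on log2(FPKM + 1). The 10755 genes averaging 1 FPKM or more over the 6 libraries entered, with Benjamini-Hochberg adjustment over all of them. Fold changes on this scale understate the change of low genes. Ratios within a library were compared by exact permutation tests (scipy 1.17.1). The fit was also run on simulated counts with 200 genes changed in either direction, a setting that does not test the choice of scaling. All 10 genes are named, and so are called genes among related light chain, calmodulin and phosphatase genes, some of which are not reported here, and the 3 nearest profiles of Mylk2, Myl2 and Myl3. Ppp1cb, Ppp1r14a, Dapk3, Myl12a, Myl10, Myl7, Mylk3, Myh8 and Myh3 were named after their values were seen. Members and lists were chosen with earlier results of these data known. Of the 11 ratios, 7 were added after the values were seen. Promoter windows came from RefSeq (GRCm38.p6). Alternatives changed the scaling, the filter, the pseudocount, the test, a replicate block and the libraries included.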

Additional observations from a re-analysis of the deposited data

How the results depend on the processing

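With the authors' size factors, 2264 genes were higher and 3218 lower, against 4476 and 1255 with FPKM. Quantile normalization gave 2377 and 2889, the authors' deposited test 3365 lower, and a filter of 5 FPKM 2023 higher. Of the 10 genes, the number called higher was 3 with FPKM, 0 with the size factors and in the authors' deposited test, and 1 with quantile normalization. Leaving out each library in turn, 3560 to 4600 genes were higher and 1007 to 1194 lower, and of the 10 genes 2 to 3 were higher and 5 to 6 lower. Mylk2, Mylk4, Myl1, Mylpf and Myl6b kept their direction and call in every alternative in which they were tested, with log2 changes from -2.51 to -2.09, -1.91 to -1.49, -1.30 to -0.61, -1.21 to -0.39 and -1.07 to -0.51.

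The sign of Myl2 turned with the size factors (-0.24), quantile normalization (-0.012) and in the authors' deposited test (-0.49), and ran from -0.58 to 0.51 with each library left out. Myl3 was no longer called with the size factors or by the authors' deposited test (0.47, adjusted p = 0.196). Myl6 was no longer called with the size factors, with quantile normalization (limma, adjusted p = 0.0801) or by the authors' deposited test (adjusted p = 0.889). Mylk lost its call also without a filter (limma, adjusted p = 0.0629), with quantile normalization (0.336) and in the authors' deposited test (0.268). The causes were not tested. The 4 ratios planned kept their direction throughout, and their exact tests cannot reach 0.05 at this size. The slow share of the regulatory chains differed by 0.223 to 0.985 percentage points with each library left out, its ends being without WT 1 and without WT 3.

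Same-numbered libraries did not pair (correlations of 0.0828, -0.17 and 0.188). With the replicate block 4309 genes were higher and 1212 lower, and of the 10 genes 3 were higher and 5 lower.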
